A study of Mus musculus with 35 samples.

Results

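The NR4A receptors and immediate early genes are 10 of the 55421 genes counted in interscapular brown adipose tissue (iBAT) of 35 mice. They were chosen by name, with earlier results of these data known. They are Nr4a1, Nr4a2 and Nr4a3, Fos, Fosb and Junb, Egr1, Atf3, Crem and Ier2. All mice were male C57BL/6J animals of 9 to 10 weeks with no engineered allele named, and each gave its own library. Controls stayed at the colony temperature of 24 °C, named room temperature here, and 6 groups were kept at 6 °C for 6 hours or for 1, 2, 3, 4 or 5 days, with 5 mice in every group. One interscapular pad per mouse was taken after white fat was trimmed off. Cold-exposed mice were caged alone in an incubator without nesting material, so that cold and these housing conditions cannot be told apart. The time course asks when each gene responds to cold and how much individual mice differ.

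Immediate early genes are transcribed when a signal reaches the cell, without the need for new protein, and their transcripts are usually short-lived. In brown fat, norepinephrine from sympathetic nerves acts on β-adrenergic receptors, and the cAMP formed activates protein kinase A, which phosphorylates CREB bound at cAMP response elements (CREs). NR4A proteins are nuclear receptors without a known natural ligand that act largely in proportion to their amount. Fos, Fosb and Junb encode subunits of the AP-1 transcription factor, Atf3 and Crem encode relatives of CREB that can repress its targets, Egr1 encodes a zinc finger factor, and Ier2 encodes a short nuclear protein.

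Promoter sequences are shown first because the CRE half-site is the element through which this pathway is known to act on NR4A genes and Fos. RefSeq (GRCm38.p6) gave a start for 7 of the 10 members, and the 250 bases before each start were searched on both strands. All 7 held the half-site TGACG (or CGTCA on the other strand), which 17.8% of the 32851 starts of all genes held. There were 4 matches each before Nr4a1, Nr4a2 and Nr4a3, 2 before Fos, and 1 each before Fosb, Junb and Atf3. At least 4 matches were present before 0.137% of all starts. None of the 7 held the full palindrome TGACGTCA (1.55% of all starts, each of which also counts as 2 overlapping half-sites), the AP-1 letters TGANTCA (6.75%) or the monomer site of NR4A receptors, AAAGGTCA (1.34%). These stretches are rich in G and C, with 74.4% before Nr4a1, 80% before Nr4a2, 63.6% before Nr4a3 and 58.4% before Fos, against a median of 52.4% over all starts. Matches are letters in a window, and binding was not measured. The stretch before Nr4a1 lies inside the gene as annotated, within an intron of longer transcripts, and those before Nr4a2 and Fos end at the annotated 5′ end of the gene. Capitals mark the half-sites, and Nr4a3 is given up to the first annotated exon, which leaves out its 4th match:
Nr4a1, chr15:101266596-101266845, plus strand: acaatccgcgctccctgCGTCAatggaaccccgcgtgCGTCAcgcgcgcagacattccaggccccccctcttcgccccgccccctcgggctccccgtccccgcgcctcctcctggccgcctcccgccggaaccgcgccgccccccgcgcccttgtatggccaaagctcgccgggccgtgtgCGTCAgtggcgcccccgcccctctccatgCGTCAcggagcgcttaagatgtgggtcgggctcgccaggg
Nr4a2, chr2:57124004-57124253, minus strand: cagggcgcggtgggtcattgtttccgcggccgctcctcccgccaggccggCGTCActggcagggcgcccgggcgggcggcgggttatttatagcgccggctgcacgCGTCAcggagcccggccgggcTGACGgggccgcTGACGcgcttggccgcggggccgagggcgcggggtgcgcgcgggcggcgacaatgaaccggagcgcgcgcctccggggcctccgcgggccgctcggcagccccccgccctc
Nr4a3, chr4:48045055-48045152, plus strand: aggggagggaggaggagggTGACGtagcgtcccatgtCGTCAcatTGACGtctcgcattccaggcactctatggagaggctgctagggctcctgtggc
Fos, chr12:85473640-85473889, plus strand: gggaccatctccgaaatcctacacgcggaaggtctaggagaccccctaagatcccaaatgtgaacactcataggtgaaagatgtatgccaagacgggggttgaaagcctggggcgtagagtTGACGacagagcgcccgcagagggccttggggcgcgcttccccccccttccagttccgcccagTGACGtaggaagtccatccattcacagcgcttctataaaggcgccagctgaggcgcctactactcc

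Each library held 3846016 to 6047247 reads counted on genes, so that 1 read equals 0.26 CPM (counts scaled to a total of 1000000) in the smallest library and 0.165 CPM in the largest. Mitochondrial genes took 33.61% to 46.19% of the counts and Gm42418 took 7.81% to 16.27%. The kit reads transcript ends, and levels below are compared between groups for 1 gene, never between genes. CPM values are scaled by TMM factors over the 35 libraries. A gene was called when edgeR's quasi-likelihood test gave a Benjamini-Hochberg adjusted p below 0.05 over all genes tested in that comparison. Of 80 pairs of a member and a comparison, 55 passed the count filter. In the other 25, log2 CPM was compared by a two-sided exact permutation test, whose smallest p is 0.00794. The exact p-values below are unadjusted, and after Benjamini-Hochberg adjustment over the 25 pairs none was under 0.05 (smallest 0.0662). Brown adipocyte genes were present in every library, with a summed level of 11 markers between 14250 and 25200 CPM. In whole tissue, fewer cells of a type and less RNA per cell cannot be told apart.

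After 6 hours in the cold, all 3 NR4A receptors, Crem and Atf3 were called higher and Egr1 was called lower. Among all genes tested in that comparison, 21.5% were called higher and 21.0% lower. Nr4a3 and Atf3 passed the count filter only through the cold mice, so the number of members called says little by itself. Fos and Fosb did not pass the filter, and Junb and Ier2 were not called.

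**Figure D1:**
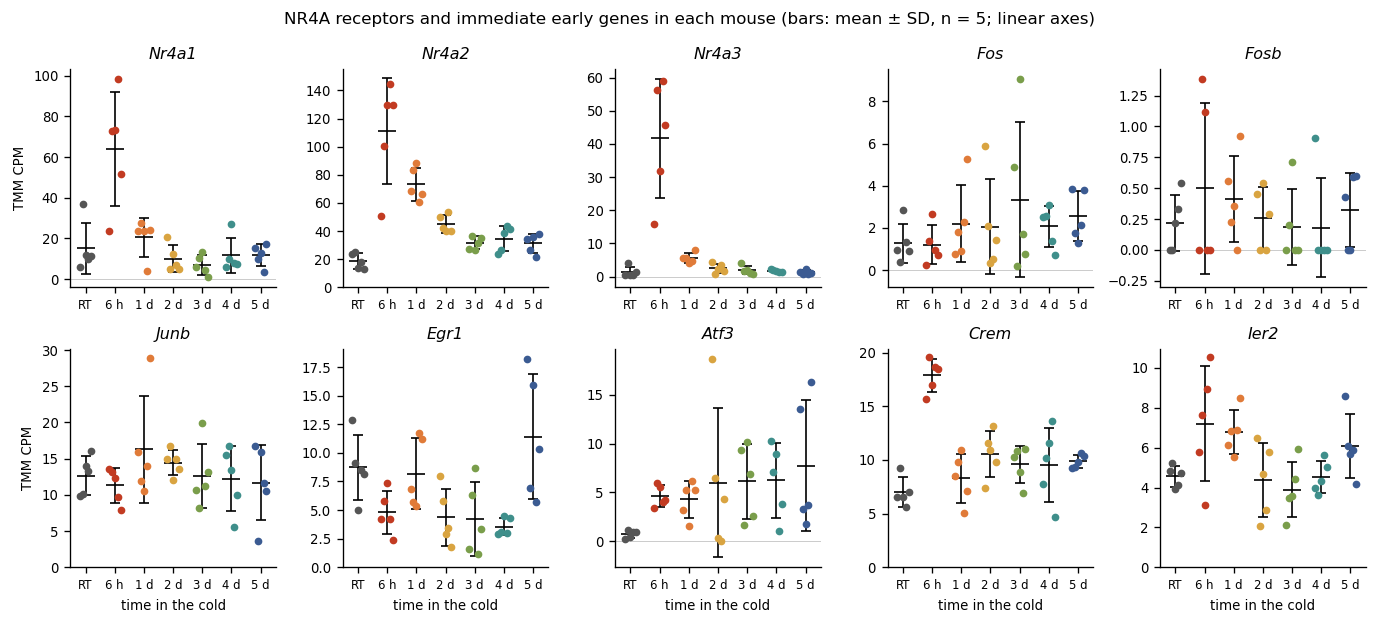
TMM-scaled CPM (linear axes) of the 10 members against time in the cold, with 1 point per mouse and bars for the mean ± SD of 5 mice. The 3 NR4A receptors and Crem peak after 6 hours, Nr4a2 then declines step by step to 31.57 CPM after 3 days, and Atf3 scatters from 0 to 18.7 CPM after 2 days.

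Nr4a3 (also called NOR-1; chr4:48045153-48086447, plus strand) had the largest change of the 8 members tested after 6 hours. At room temperature its 5 values were 0.386, 4.07, 0.435, 0.493 and 1.27 CPM, and after 6 hours they were 15.7, 56.1, 31.8, 58.9 and 45.7 CPM. The groups did not overlap. The log2 fold change was 4.94 (SE 0.442, adjusted p = 1.11e-07, edgeR), which is 30.6-fold with a 95% confidence interval of 16.1 to 58.4. The control with 4.07 CPM stood apart from the other 4, and without it the log2 fold change was 5.92. After 1 day the values lay between 4.12 and 8.04 CPM, and every mouse of this group was still above every control (log2 fold change 2.07, SE 0.478, adjusted p = 0.00281; 3.06 without that control). From 2 days on Nr4a3 was below the count filter. Its mean CPM from the second to the fifth day was 2.47, 1.94, 1.73 and 1.31, beside 1.33 ± 1.57 (SD, n = 5) at room temperature, and the exact p ranged from 0.151 to 0.619.

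Nr4a1 (Nur77; chr15:101254269-101274795, plus strand) had 1 control far above the other 4. Its values at room temperature were 5.78, 36.8, 11.7, 9.69 and 11.2 CPM, and after 6 hours they were 23.8, 73.0, 73.6, 98.6 and 51.6 CPM. The groups overlapped through 1 control, which was above 1 cold-exposed mouse. The log2 fold change after 6 hours was 2.08 (SE 0.384, adjusted p = 0.000311), or 4.22-fold (95% confidence interval 2.41 to 7.38). Without the control at 36.8 CPM it was 2.72. After 1 day 4 mice lay between 23.4 and 27.7 CPM and the other one at 3.83 CPM. The log2 fold change was then 0.46 (SE 0.434, adjusted p = 0.437), and it became 1.10 with an adjusted p of 0.028 when the control at 36.8 CPM was left out. From the second to the fifth day the means were 9.99, 7.01, 11.7 and 11.7 CPM. They were below the control mean of 15.04 ± 12.4 (SD, n = 5), and in none of these comparisons was Nr4a1 called (adjusted p from 0.113 to 0.576). Without the same control, the log2 fold change turned its direction after 2 days (0.096), 4 days (0.29) and 5 days (0.27), and was -0.41 after 3 days.

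Nr4a2 (Nurr1; chr2:57106830-57124003, minus strand) was called higher at every duration. Control values were 23.5, 25.0, 13.9, 18.1 and 13.4 CPM. After 6 hours the values were 50.55, 100.3, 129.9, 144.8 and 130.0 CPM, all above the controls. The mean was 111.1 ± 37.5 CPM after 6 hours and 73.3 ± 11.8 after 1 day, and from the second to the fifth day it was 45.2 ± 6.29, 31.6 ± 4.63, 34.7 ± 9.04 and 31.2 ± 6.96, beside 18.8 ± 5.34 at room temperature (SD, n = 5 each). The ranges of the groups at 1 day and 2 days did not overlap, whereas those at 3, 4 and 5 days overlapped. After 4 and after 5 days 4 of the 5 mice were above every control, and at the earlier times all 5 were. The log2 fold change was 2.54 (SE 0.236, adjusted p = 1.68e-07) after 6 hours, 1.96 (SE 0.171, adjusted p = 2.89e-07) after 1 day and 1.25 (SE 0.17, adjusted p = 4.66e-05) after 2 days. On days 3, 4 and 5 it was 0.75 (adjusted p = 0.00277), 0.88 (adjusted p = 0.00214) and 0.72 (adjusted p = 0.00515). These calls held in all 6 comparisons when any 1 mouse was left out and under every other setting run.

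After 1 day, 2 of the 3 receptors were called lower than after 6 hours. Nr4a3 fell by 2.87 on the log2 scale (SE 0.294, adjusted p = 4.16e-06), and Nr4a1 fell by 1.62 (SE 0.345, adjusted p = 0.0036). For Nr4a2 the change was -0.59 (95% confidence interval -1.01 to -0.17, adjusted p = 0.051), just short of the threshold. It was called lower in 5 of the 7 other settings that kept all mice, and without the cold-exposed mouse at 50.55 CPM (-0.77, adjusted p = 0.00126). Whether the 3 receptors differed from one another in this change was not tested. In this comparison edgeR called 3 members lower (Nr4a1, Nr4a3 and Crem) and 0 higher, with 2 higher at an unadjusted p under 0.05. DESeq2 called 4 lower, Nr4a2 among them (-0.59, adjusted p = 0.037), and 0 higher. With edgeR, 7.75% of all genes tested were called lower and 9.19% higher. After 5 days all 3 receptors and Crem were called lower than after 6 hours, and Egr1 higher, where 16.9% of genes were called lower and 19.0% higher. Here Nr4a3 passed the count filter only through the mice at 6 hours, so its place in this count says little by itself. The log2 change from 6 hours to 5 days was -4.97 for Nr4a3 (SE 0.353), -2.44 for Nr4a1 (SE 0.315) and -1.82 for Nr4a2 (SE 0.211), and every mouse after 5 days was below every mouse after 6 hours for each receptor.

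**Figure D2:**
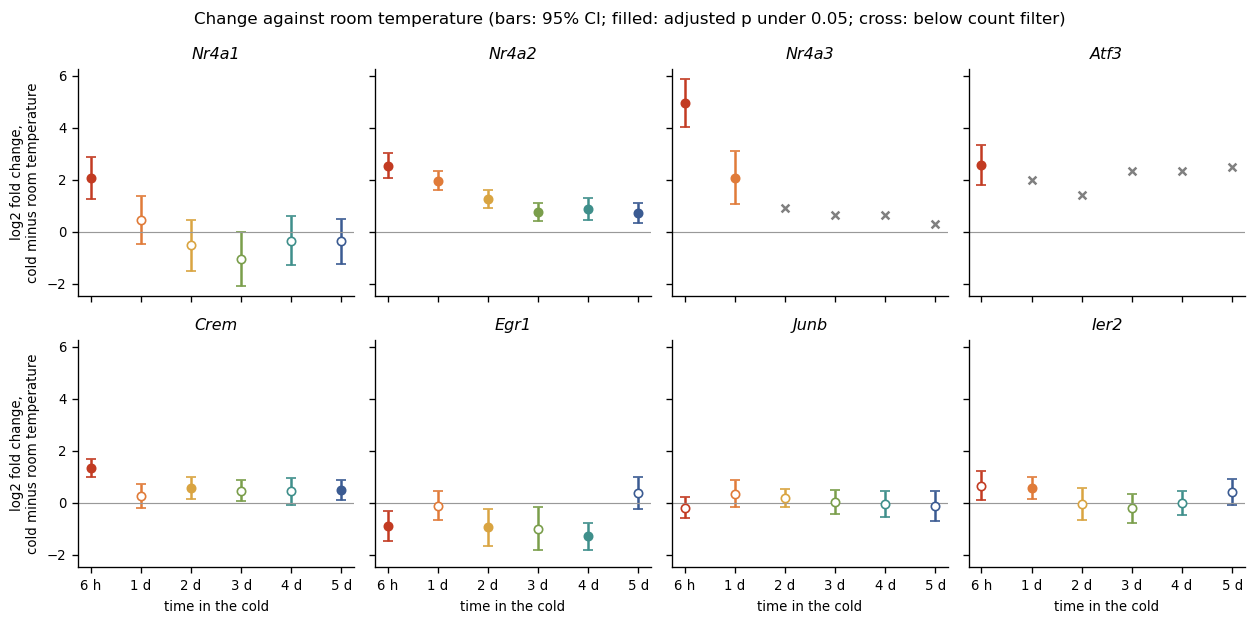
Log2 fold change against room temperature for 8 members by time in the cold, with 95% confidence intervals. Filled points have an adjusted p under 0.05, and crosses are differences in mean log2 CPM for pairs below the count filter. Nr4a2 is filled at all 6 durations, falling from 2.54 to 0.72, while Nr4a1 is filled after 6 hours alone.

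Crem (chr18:3266048-3337748, minus strand) was also highest after 6 hours. Its values were 6.55, 9.29, 6.52, 5.58 and 7.06 CPM at room temperature and 15.7, 19.6, 17.0, 18.6 and 18.5 CPM after 6 hours. The groups did not overlap, and the log2 fold change was 1.33 (SE 0.156, adjusted p = 2.65e-06). After 1 day the level was 8.30 ± 2.28 CPM (SD, n = 5), lower than after 6 hours by 1.08 on the log2 scale (adjusted p = 0.000499) and not called against room temperature (0.26, adjusted p = 0.373). Means from 2 to 5 days lay between 9.56 and 10.6 CPM. Crem was called higher than at room temperature after 2 days (0.57, adjusted p = 0.0387) and 5 days (0.49, adjusted p = 0.0401), and both calls were lost in most alternatives, including scaling by library size alone (0.34 and 0.25) and the fit with a replicate block. Counts at transcript ends do not separate CREM from its repressor isoform ICER. On the opposite strand Crem overlaps Gm6225, which held at most 10 reads in any library.

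Atf3 (chr1:191170296-191218039, minus strand) was nearly absent from controls, with 1, 6, 2, 6 and 5 reads, or 0.193, 1.16, 0.435, 0.985 and 0.905 CPM. After 6 hours the values were 3.41, 6.01, 5.59, 4.01 and 4.26 CPM, all above the controls (log2 fold change 2.57, SE 0.369, adjusted p = 2.47e-05). Its means from the first to the fifth day were 4.29, 5.97, 6.12, 6.23 and 7.72 CPM. It did not pass the filter in these 5 comparisons. The exact p was 0.00794 after 1, 3 and 5 days, where the groups did not overlap, 0.0159 after 4 days and 0.214 after 2 days. None of these passed once adjusted with the other pairs below the filter (0.0662 on days 1, 3 and 5, 0.0994 on day 4, 0.594 on day 2). On days 1, 3 and 5 the exact p was the smallest this test can give. Over 25 pairs the adjustment could thus hardly be passed, and missing it says little about Atf3. In a joint fit of all 7 groups, where Atf3 was tested, it was called higher than at room temperature at each duration, with log2 fold changes between 2.44 and 3.32 and adjusted p between 0.00103 and 0.0227. Atf3 passed the count filter of that fit only through cold mice, as no control had 10 reads. Its change from 6 hours to 5 days was 0.75 (95% confidence interval -0.167 to 1.66, adjusted p = 0.196). Mice of one group differed widely, from 0 to 18.7 CPM after 2 days and from 1.74 to 16.3 CPM after 5 days.

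Several macrophage markers were called higher in the later groups. The summed level of 10 markers had a median of 98.1 CPM at room temperature (range 89.65 to 204.8) and 106.1 after 6 hours (89.06 to 107.6), against 184 after 3 days (149.2 to 329.4), 253.1 after 4 days (109.1 to 291.5) and 209.4 after 5 days (122.7 to 236.8). None of the 10 was at 0 in all mice of a group. At 6 hours 0 of 8 macrophage markers tested were called higher by edgeR or DESeq2 (0 at an unadjusted p under 0.05) and 1 was called lower. Of all genes tested in that comparison, 21.5% were called higher and 21.0% lower. After 3 and after 4 days 4 of 9 were called higher, and after 5 days 3 of 9, with 1 called lower each time. Of all genes, 18.3%, 19.4% and 20.2% were called higher at these times and 15.5%, 18.6% and 18.6% lower. Cd68, a lysosomal protein of macrophages, went from 2.46 ± 1.23 to 10.9 ± 6.10 CPM after 5 days (SD, n = 5), while Cd14, a receptor subunit for bacterial lipid, was lower (-1.55). The part of macrophage markers in the level of Atf3 was not tested at any time.

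Fos (chr12:85473890-85477273, plus strand), the best known immediate early gene, had 371 reads in all 35 libraries together. Counts were 5, 2, 13, 8 and 5 reads at room temperature and 1, 6, 12, 4 and 4 after 6 hours, so that mean levels were 1.28 ± 0.926 and 1.20 ± 0.921 CPM (SD, n = 5). The difference in log2 CPM was -0.094 (exact p = 0.81). At this depth and spread a change of moderate size was not detectable, and in the joint fit its 95% confidence interval ran from -1.59 to 1.48 on the log2 scale. Later means lay between 2.06 and 3.34 CPM, with single mice at 5.88 CPM after 2 days and 9.07 CPM after 3 days, and no exact p against room temperature was under 0.0873. After 3 days the joint fit gave 1.42 on the log2 scale (95% confidence interval 0.0584 to 2.77, adjusted p = 0.105). Without the count filter Fos was called higher at that time (1.43, adjusted p = 0.00946, edgeR). The SE of Fos was 0.434 in that fit and 0.671 in the joint fit. Only 2 mice of that group had at least 10 reads (21 and 51), and the exact p was 0.429. Fosb (chr7:19302696-19310051, minus strand) had 52 reads in all and 0 in 17 of the 35 libraries, with at most 6 in one, so that no fold is given. A count of 0 still allows up to 3 reads. Mice were first sampled after 6 hours, and earlier times were not measured.

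Junb (chr8:84974484-84978718, minus strand) had enough reads to be tested in every comparison and was called in none. Its values were 9.83, 10.1, 13.9, 13.3 and 16.1 CPM at room temperature and 13.6, 13.2, 12.3, 9.67 and 7.96 CPM after 6 hours. The groups overlapped throughout, and the log2 fold change after 6 hours was -0.19 (95% confidence interval -0.585 to 0.201, adjusted p = 0.431). In the 5 later comparisons it lay between -0.13 and 0.35, and scaling by library size alone turned its sign after 2 days (-0.043) and 3 days (-0.12). The highest value, 28.9 CPM, was in 1 mouse after 1 day. Exons of Junb overlap Prdx2 on the opposite strand, which had mean levels of 82.8 to 123.8 CPM. The strand setting of the counting is not given in the sources used here, so reads of these genes may not be fully separated.

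Egr1 (chr18:34859823-34864984, plus strand) was called lower after 6 hours. Its values were 12.9, 9.10, 5.00, 8.54 and 8.14 CPM at room temperature and 4.19, 5.78, 7.38, 4.24 and 2.40 CPM after 6 hours, so that 3 cold-exposed mice were below every control. The log2 fold change was -0.90 (SE 0.279, adjusted p = 0.015). The call was lost without the control at 12.9 CPM (-0.72) and in the joint fit of all groups (-0.88, adjusted p = 0.0751). After 1 day the mean was 8.19 ± 3.07 CPM, not called against room temperature or against 6 hours. Egr1 was called lower after 2 days (-0.96, adjusted p = 0.0392), was at -1.003 after 3 days (adjusted p = 0.0618, and 0.0401 with DESeq2), and was called lower after 4 days (-1.30, SE 0.249, adjusted p = 0.000653), when every cold-exposed mouse, at 2.89 to 4.49 CPM, was below every control. The call after 2 days was lost when any 1 of 7 mice was left out, while that after 4 days held in every setting. After 5 days the mean was 11.4 ± 5.49 CPM, higher than after 6 hours by 1.27 on the log2 scale (SE 0.32, adjusted p = 0.00387), and not called against room temperature (0.37, adjusted p = 0.339).

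Ier2 (chr8:84661331-84662852, minus strand) was at 4.55 ± 0.538 CPM at room temperature, 7.20 ± 2.88 after 6 hours and 6.78 ± 1.11 after 1 day (SD, n = 5). The values after 6 hours were 5.76, 7.62, 3.13, 8.96 and 10.54 CPM, 4 of them above every control and 1 below. Against room temperature the difference was 0.65 on the log2 scale (95% confidence interval 0.084 to 1.21, adjusted p = 0.06), and without the mouse at 3.13 CPM it was 0.85 and was called (adjusted p = 0.00587). After 1 day all 5 mice, at 5.55 to 8.50 CPM, were above all controls, at 3.91 to 5.23 CPM, and the log2 fold change of 0.56 passed the threshold (adjusted p = 0.0354). That call was lost with DESeq2 (adjusted p = 0.0517), in the joint fit (0.107), with scaling by library size alone (0.34, adjusted p = 0.21), without the count filter (0.123), with the replicate block (0.0614) and without any 1 of 5 mice.

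All 6 comparisons against room temperature share the same 5 controls. Counted over the 10 members, edgeR called 3 higher (Nr4a2, Nr4a3 and Ier2) and 0 lower after 1 day, where 18.9% of all genes tested were higher and 17.8% lower. DESeq2 called 2 higher and 0 lower, and 0 were lower at an unadjusted p under 0.05. Nr4a3 again passed the filter only through the cold mice. After 2 days 2 were higher (Nr4a2 and Crem) and 1 lower (Egr1), beside 16.4% and 14.7% of all genes. After 3 days Nr4a2 alone was called by edgeR, beside 18.3% higher and 15.5% lower. Nr4a2 was higher and Egr1 lower after 4 days, beside 19.4% and 18.6%, and Nr4a2 and Crem were higher after 5 days, beside 20.2% and 18.6%. A test of any difference among the 7 groups called 7 members of the 9 that passed its filter, where 60.4% of all genes were called. Nr4a3 and Atf3 passed this filter too only through cold mice, so this number says little by itself. Fos (adjusted p = 0.386) and Junb (adjusted p = 0.588) were not called, and the adjusted p was 6.3e-16 for Nr4a3, 1.38e-12 for Nr4a2 and 0.0181 for Atf3.

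Several members differed more between mice of one group than most genes did. The SD of log2 CPM around group means was 1.22 for Atf3, 0.994 for Nr4a1, 0.991 for Fos, 0.684 for Nr4a3 and 0.669 for Egr1, where the median of 12077 genes tested was 0.330. For Atf3, 99.5% of tested genes had a smaller SD, and for both Nr4a1 and Fos 98.9% did. Low counts add to this measure, and Fos, Atf3 and Nr4a3 are among the genes with few reads. Nr4a1 had 3384 reads in all, and its biological coefficient of variation, which sets counting error aside, was 0.544 (larger than in 96.9% of genes). The same coefficient was 0.699 for Atf3 (98.9%), 0.674 for Fos (98.6%) and 0.39 for Nr4a3 (89.9%). Nr4a2 and Crem were nearer to the median, with SDs of 0.368 and 0.326.

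**Figure D3:**
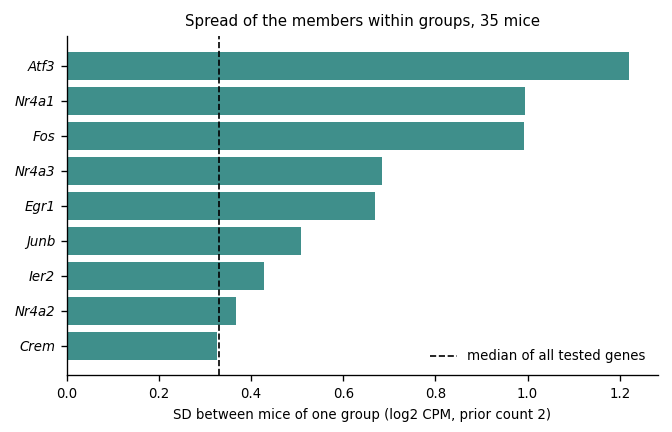
SD of log2 CPM between mice of one group for the 9 members that passed the filter, pooled over 7 groups of 5 mice, with the median of all tested genes as a dashed line at 0.330. Atf3, Nr4a1 and Fos extend to about 1 or beyond, and Crem ends at the line.

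Deviations of each mouse from its group mean were compared between members, in 36 relations over 35 mice with 100000 permutations within groups. These points share libraries and depth. Nr4a1 and Nr4a3 varied together (Pearson's r = 0.609, Spearman's rho = 0.567, permutation p = 0.00023 and 0.00117, adjusted 0.00414 and 0.0211), and r was 0.62 when the 2 mice with the most extreme Nr4a1 deviations were left out. Room temperature replicate 2, high in both genes (deviations of 1.55 for Nr4a1 and 1.73 for Nr4a3), was kept there. The value of r without this control was not computed. Fos and Atf3 varied together as well (r = 0.709, rho = 0.751, both permutation p = 1e-05, the smallest these permutations can give, adjusted 0.00036), with r = 0.699 without the 2 farthest mice and 0.649 without the mouse with the highest Atf3. No other pair passed an adjusted p of 0.05 for r or rho. Nr4a1 and Fos, for example, had r = 0.232 (permutation p = 0.296, adjusted 0.537).

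The same deviations were set against summed levels of 8 marker lists and heat shock genes, in 81 relations. Each sum adds CPM, so that abundant genes weigh most. The brown adipocyte sum includes Ucp1, itself higher in the cold, with a mean of 7242 CPM after 6 hours beside a median sum of 19260 CPM. Which markers of a sum carried a relation was not tested. Fos was higher in mice with more macrophage marker RNA (r = 0.589, rho = 0.678, permutation p = 0.00022 and 4e-05, adjusted 0.00445 and 0.00162) and lower in mice with more brown adipocyte marker RNA (r = -0.773, rho = -0.772, permutation p = 2e-05 for both, adjusted 0.00121 and 0.00162). Atf3 showed the same directions, with r = 0.659 and rho = 0.685 for macrophage markers (permutation p = 3e-05 and 0.0001, adjusted 0.00121 and 0.0027) and r = -0.667 and rho = -0.622 for brown adipocyte markers (permutation p = 0.00019 and 0.00038, adjusted 0.00445 and 0.00769). Egr1 was higher in mice with more endothelial marker RNA (r = 0.556, rho = 0.554, permutation p = 0.00271 and 0.0021, adjusted 0.0439 and 0.0283). Without the 2 farthest mice, r was 0.586 and -0.77 for Fos, 0.638 and -0.639 for Atf3 and 0.521 for Egr1, in that order. Junb and brown adipocyte markers passed the threshold for rho (-0.555, permutation p = 0.00162, adjusted 0.0262) and not for r (-0.452, permutation p = 0.00676, adjusted 0.0684). No relation of an NR4A receptor with a marker sum passed the threshold.

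**Figure D4:**
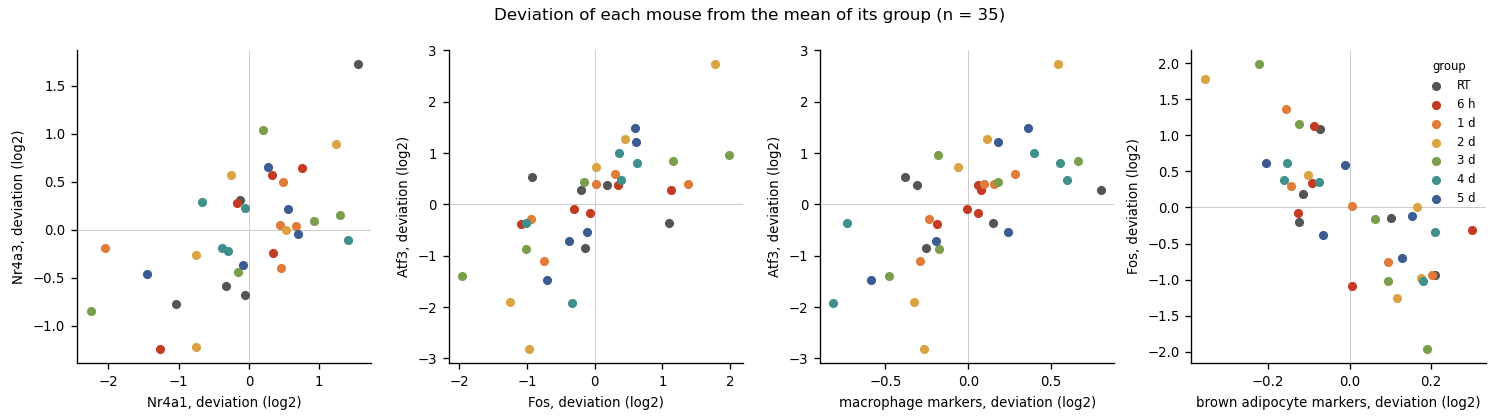
Each point is 1 of 35 mice, coloured by group, placed by the deviation of its log2 level from the mean of its group. From left to right the panels set Nr4a3 against Nr4a1 (r = 0.609), Atf3 against Fos (r = 0.709), Atf3 against the macrophage marker sum (r = 0.659) and Fos against the brown adipocyte marker sum (r = -0.773).

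Other genes of the pathway are given from lists chosen by name, with earlier results of these data known. Counts of called genes in these lists are therefore a description and not a test. Of 11 relatives of the AP-1 subunits, 7 were tested after 6 hours and 5 were called higher and 0 lower with edgeR and with DESeq2 (0 lower at an unadjusted p under 0.05), where 21.5% of all genes were called higher and 21.0% lower. The median log2 fold change was 0.79 beside -0.027 over all genes. Fosl2, which encodes a Fos-related subunit, went from 6.37 ± 1.07 to 51.3 ± 11.3 CPM (log2 fold change 2.98, adjusted p = 8.79e-10), and Maff, a small MAF factor, from 0.926 ± 0.611 to 9.65 ± 2.93 CPM (3.36, adjusted p = 1.34e-06). Maff passed the count filter only through the cold mice. Jdp2 (1.38) and Mafk (0.79) were called too. After 5 days 1 of 6 was called, Fosl2 at 14.3 ± 3.22 CPM.

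The shares of all genes called were 21.5% higher and 21.0% lower after 6 hours, and 20.2% and 18.6% after 5 days. Of 40 other immediate early genes, 33 were tested after 6 hours, 15 were called higher and 1 lower (median 0.41), and after 5 days 10 of 31 were higher and 5 lower. The largest changes after 6 hours besides Maff were in Gadd45g (2.55), Dusp6 (2.53), a phosphatase of ERK, and Sik1 (2.43), a kinase that restrains CREB coactivators. Dusp6 stayed at 96.6 ± 16.6 CPM after 5 days beside 21.9 ± 8.76 at room temperature. Of 20 genes for CREB, ATF factors and coactivators, 7 were higher and 2 lower after 6 hours, among them Atf4 (1.32) and Atf5 (1.22), and 3 were higher and 4 lower after 5 days, which is close to the shares of all genes. Of 24 cAMP-responsive genes of brown fat, 21 were tested after 6 hours, with 12 higher and 4 lower, led by Dio2 (5.41), Elovl3 (4.62) and Ppargc1a (3.62). After 5 days 9 of 22 were higher and 3 lower. Among the higher ones, Bmp8b (27.9 CPM beside 0.071 at room temperature) passed the count filter only through the cold mice. Of the 3 RXR genes, whose proteins can pair with some NR4A receptors, Rxrg was higher after 6 hours (0.98, adjusted p = 0.000321) and Rxrb after 5 days (0.59, adjusted p = 0.000941). Of 10 heat shock genes 8 were tested after 6 hours and all 8 were higher, led by Hsph1 (3.14) and Hspa8 (2.64), and 7 of 8 were higher after 5 days.

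Some cell type markers were called at 6 hours as well, where 21.5% of all genes tested were called higher and 21.0% lower. The endothelial sum of 8 genes had a range of 309.4 to 375.3 CPM in controls and 504 to 614.7 CPM after 6 hours. In it 3 genes were called higher (Pecam1, Kdr and Esam) and 2 lower, Tie1 (-0.61) among them. Abundant genes weigh most in this sum. Mean Kdr went from 131.3 to 264.6 CPM and Pecam1 from 48.7 to 104.7, while Tie1 went from 16.5 to 10.9. Of 5 erythroid markers tested, 3 were called higher, and 1 of 11 brown adipocyte markers, Ucp1, was higher and 3 lower. The 10 skeletal muscle markers, with sums between 2.57 and 1326 CPM over all mice, and 7 stromal markers gave 0 calls after 6 hours with edgeR and with DESeq2, and 1 muscle and 3 stromal markers were lower at an unadjusted p under 0.05. After 5 days 5 muscle markers were lower with edgeR and 1 with DESeq2, where edgeR called 18.6% of all genes lower. Neutrophil and B and T cell markers had 0 genes tested, Ly6g and Camp were at 0 in every library, and the sums reached at most 5.88 and 9.28 CPM. Their part in the changes of the members was not tested.

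Genes most like the members in pattern were sought among 6167 genes with a mean of at least 50 counts, by Pearson's r of log2 CPM over the 35 mice and as a description. For Nr4a3 they were Hnrnpu (r = 0.943), Mbnl2 (0.933), Baz1a (0.92), Mgea5 (0.913) and Ccar1 (0.87). For Nr4a1 they were Fam214a (0.798), Irs2 (0.797), Ccnl1 (0.792), Polr1a (0.753) and Mgea5 (0.747). For Fos they were Ddit3 (0.722), S100a4 (0.715), Actb (0.702), S100a6 (0.689) and Lgals3 (0.687). Within groups, deviations of Fos were most like those of S100a6 (0.825), Actb (0.807), Zeb2 (0.793), Iqgap1 (0.787) and Lgals3 (0.77).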

How the data were processed

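Per the labels and the study's methods, 3′ end libraries (QuantSeq FWD) of iBAT from 35 mice were sequenced, aligned with STAR 2.6.1d to GRCm38 and counted per gene with HTSeq 0.11.2. The authors deposited raw read counts per gene, and the strand setting is not given in the sources used here. A 3′ count follows transcript ends, so that isoforms sharing an end are not separated. Groups were taken from the labels. No 2 libraries were identical. Each group was compared with room temperature, and 1 day and 5 days with 6 hours, with edgeR 4.0.16 (TMM, filterByExpr with a minimum count of 10, quasi-likelihood F test, Benjamini-Hochberg adjustment) in R 4.3.3, fitted on all genes past the filter. Another F test compared all 7 groups. Pairs below the filter were compared on log2 CPM with a prior count of 2 by exact permutation. Code was tested on simulated data. Alternatives were DESeq2 1.42.0, RLE factors, library size alone, no mitochondrial genes or Gm42418, no filter, 1 joint fit, fits without each mouse in turn and a block for replicate number. The members and lists were chosen with earlier results of these data known. Named list genes were those with the largest changes among the called ones. Counts limit the precision of Fos, Fosb and Atf3 most, and 267 rows carry no gene symbol.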

Additional observations from a re-analysis of the deposited data

Results flagged for a closer look

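In 70 sets of 5 mice (10 genes in 7 groups), 6 single values stood apart from the other 4 by Dixon's criterion at the 95% level. For independent, normally distributed values chance gives about 3.5 (1 in 20). Members share mice, and CPM values from a few reads need not be normal, so this number is a rough guide only. The same control, room temperature replicate 2, was highest for Nr4a1 at 36.79 CPM (next value 11.74) and for Nr4a3 at 4.066 CPM (next value 1.267). Nr4a1 was low at 3.828 CPM in replicate 4 after 1 day (next value 23.4) and high at 27.12 CPM in replicate 3 after 4 days (next value 9.641). Fosb was highest at 0.7117 CPM in replicate 3 after 3 days and at 0.9034 CPM in replicate 1 after 4 days, which are 4 and 5 reads.

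Between durations, 8 differences from 6 hours passed the test of the difference itself (edgeR, adjusted p under 0.05). After 1 day the log2 change was -1.62 for Nr4a1, -2.87 for Nr4a3 and -1.08 for Crem. After 5 days it was -2.44 for Nr4a1, -1.82 for Nr4a2, -4.97 for Nr4a3 and -0.84 for Crem, and 1.27 for Egr1. In the comparison of 5 days with 6 hours, Nr4a3 passed the count filter only through the mice at 6 hours.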

How the results depend on the processing

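The calls of Nr4a1, Nr4a2, Nr4a3, Atf3 and Crem after 6 hours, of Nr4a2 at every duration and of Egr1 after 4 days kept their direction and their side of the threshold in every alternative run. Scaling by library size alone moved the median log2 fold change of all genes after 6 hours from -0.027 to -0.21, and the split of calls from 2280 higher and 2225 lower to 1342 and 3399. It left 1 member higher after 2 days and 1 after 5 days, made 1 lower after 3 days, and turned Junb to -0.043 after 2 days and -0.12 after 3 days. DESeq2 called 1 lower after 3 days and 1 higher after 5 days. The joint fit called 0 lower after 6 hours and 0 after 2 days, 2 higher and 1 lower after 3 days, and 2 higher after 4 days. Without a count filter 3 were higher (Nr4a2, Atf3 and Fos) and 2 lower (Nr4a1 and Egr1) after 3 days, and 2 were higher after 4 days. The SE after 3 days was then smaller than in the main fit for Nr4a1 (0.198 against 0.492) and Egr1 (0.249 against 0.398). It was larger for Crem (0.222 against 0.194) and Ier2 (0.306 against 0.264). Calls without a count filter therefore carry less weight. Leaving out the filter also gave 1 higher for 1 day against 6 hours and 2 for 5 days against 6 hours, and Ier2 was at 0.012 after 4 days. The cause was not tested in these cases.

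Replicate numbers did not pair the mice: correlations of 105 same-numbered pairs ran from -0.246 to 0.257, 16 were over 0.1, and 16 of 105 were best with their own number. With the replicate block, 2 members were higher after 1 day (the call of Ier2 was lost, adjusted p = 0.0614), 1 was higher after 2 days, 1 lower after 3 days (Nr4a1, -1.03, adjusted p = 0.0462) and 1 higher after 5 days, and Junb was at -0.022 after 3 days.

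Leaving out each mouse in turn, the members called lower after 6 hours ranged from 0 to 1. Those called higher ranged from 2 to 5 after 1 day, 1 to 2 after 2 days, 1 to 3 after 3 days, 1 to 2 after 4 days, 1 to 3 after 5 days and 0 to 1 for 1 day against 6 hours. Those called lower ranged from 0 to 1 after 2 days and 0 to 2 after 3 days. The log2 fold change of Nr4a1 ranged from -1.01 to 0.096 after 2 days, -0.94 to 0.29 after 4 days and -0.58 to 0.27 after 5 days, with the upper values without room temperature replicate 2. Egr1 ranged from -0.27 to 0.054 after 1 day. Ier2 ranged from -0.26 to 0.13 after 2 days, -0.094 to 0.069 after 4 days and -0.29 to 0.093 for 1 day against 6 hours, and Atf3 from -0.31 to 0.079 in that comparison. Junb ranged from -0.22 to 0.14 after 3 days, -0.16 to 0.15 after 4 days, -0.28 to 0.11 after 5 days and -0.096 to 0.29 for 5 days against 6 hours. Single mice decided several calls. Calls were lost for Egr1 without room temperature replicate 1 after 6 hours and, after 2 days, without room temperature replicates 1, 2, 4 or 5 or cold replicates 3, 4 or 5. They were lost for Ier2 after 1 day without room temperature replicates 3, 4 or 5 or cold replicates 2 or 5. They were lost for Crem after 2 days and after 5 days without room temperature replicates 1, 3, 4 or 5, and without cold replicates 2, 3, 4 or 5 and 3, 4 or 5. Calls were gained for Nr4a1 after 1 day (without room temperature replicate 2) and after 3 days (without cold replicate 3, at -1.42), for Egr1 after 3 days (without room temperature replicate 3 or cold replicate 2 or 3), for Crem after 3 days (without room temperature replicate 2 or cold replicate 4) and after 4 days (without cold replicate 5), and, for 1 day against 6 hours, for Nr4a2 (without replicate 1 of 6 hours or 3 of 1 day) and Egr1 (without replicate 3 of 6 hours).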
